A study of Mus musculus with 6 samples.

Results

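The genes described are the nuclear genes of respiratory complex I and of its Ndufaf assembly factors, taken as every gene whose symbol begins with Nduf. They number 45 of the 21958 protein-coding genes in the count table and lie on 16 chromosomes. Of these, 38 carry a subunit name and 7 carry an assembly factor name (Ndufaf1 to Ndufaf7). The counts come from synaptoneurosomes of hippocampus and adjacent cortex of FVB mice aged 6 to 8 weeks. Synaptoneurosomes are a fraction of broken-up tissue enriched in synapses, with their presynaptic and postsynaptic parts. A group of 3 libraries (NMDA polyribosomes) held the RNA of light and heavy polyribosomes, combined, from synaptoneurosomes that received 50 µM NMDA with 10 µM glutamate for 30 s and then 120 µM APV, in a stimulation of 20 min. The other group of 3 (unstimulated total) held total RNA of synaptoneurosomes that were not stimulated. In the paper's methods unstimulated controls were held on ice with cycloheximide, whereas stimulated samples were incubated warm. The groups thus differed in the stimulation, in this handling and in the RNA fraction together. The effects of these cannot be told apart in these counts. Each preparation pooled several mice and was split into aliquots, so a replicate is a preparation and not an animal.

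Library totals ranged from 5294482 to 7361580 counts on polyribosomes and from 1044955 to 3738022 counts in total RNA, with replicate 3 the shallowest of each group. Summed markers of neurons and synapses (8 genes, such as Camk2a and Dlg4) stood at 11040 ± 1660 CPM (counts per 1000000 counts, mean ± SD, n = 3) on polyribosomes and at 9298 ± 977 CPM in total RNA. Those of astrocytes (6 genes) stood at 37850 ± 1153 and 32190 ± 1864 CPM, those of oligodendrocytes (6 genes) at 11950 ± 2004 and 9183 ± 1562 CPM, and those of microglia (6 genes) at 779.6 ± 65.8 and 561.8 ± 85.8 CPM. Endothelial markers (5 genes) stood at 340.8 ± 112.6 and 266.4 ± 21.0 CPM. Slc1a2 alone made up 31980 and 27870 CPM of the astrocyte sums. Among the neuron markers Snap25 had a lower mean on polyribosomes (413.2 against 461.8 CPM). The preparation therefore held RNA of glial and vascular cells beside that of neurons, the mean summed level of each marker list was higher on polyribosomes, and the part of these cells in the levels of Nduf genes was not tested. The groups overlapped for the neuron, oligodendrocyte and endothelial sums, and the endothelial sum of preparation 2 was 245.1 CPM on polyribosomes and 252.2 CPM in total RNA. Same-numbered libraries of both groups were aliquots of the same preparation, and what lay behind the marker differences was not tested.

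Complex I, or NADH:ubiquinone oxidoreductase, takes electrons from NADH, passes them along iron-sulfur clusters to ubiquinone and pumps protons across the inner mitochondrial membrane. Its peripheral arm holds an N module, which oxidizes NADH, and a Q module, which reduces ubiquinone, and its membrane arm pumps the protons. Core subunits carry out catalysis and come from the nuclear genome (peripheral arm) or from mitochondrial DNA (the ND proteins of the membrane arm). Supernumerary subunits surround them and are all made from nuclear mRNA on cytosolic ribosomes. Assembly factors such as the Ndufaf proteins help to build the modules and are absent from the finished enzyme.

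Several members share the letters around their start codon. The word that occurred most often from 3 bases before the annotated ATG to the 7th base of the coding sequence was AAGATGGCGG, present in 7 of the 45 Nduf genes (15.6%) and in 230 of 20143 genes with an annotated start (1.14%). It was picked as the most frequent word among the members, so the larger share describes them and was not tested. These letters belong to the TISU element, known for starting translation on short leaders, and also match the binding site of the factor YY1. The 5 contexts printed show how the members with the word resemble each other, and Ndufa2 also holds it and is named only. Contexts run 5′ to 3′ on the sense strand of the Gencode transcript (GRCm38), from 12 bases before the ATG to 8 bases after it, with the word in capitals. The annotated leaders of these 5 transcripts were 13 nt (Ndufa9) to 248 nt (Ndufs7) long.
Ndufa6 (chr15:82350139-82354291, minus strand): ttcctcggcAAGATGGCGGccgc
Ndufa9 (chr6:126821954-126849136, minus strand): ttgtgggagAAGATGGCGGccgc
Ndufs4 (chr13:114287795-114388094, minus strand): gcctacaggAAGATGGCGGcggt
Ndufs6 (chr13:73319874-73328542, minus strand): gtcaccggcAAGATGGCGGcggt
Ndufs7 (chr10:80249121-80256794, plus strand): gccgaggccAAGATGGCGGcgct
The start contexts of the membrane arm subunit Ndufb8 and of the assembly factor Ndufaf1 lack the exact word and have only the ATG in capitals. Ndufb8 departs from the word only in its next-to-last letter, T in place of G.
Ndufb8 (chr19:44548572-44555440, minus strand): gagaaggtgaagATGgctgccgc
Ndufaf1 (chr2:119655446-119662827, minus strand): ttttttcttacgATGgcaatgtc

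The question put to the counts was which complex I mRNAs were more or less abundant on polyribosomes of stimulated synaptoneurosomes than in unstimulated total RNA. The mRNAs of 12 of the 37 subunits tested were more abundant on polyribosomes (6.52% of all genes higher). Of the 12, 9 belonged to the membrane arm, which held 19 of the 37 tested. Once transcript length and GC content were allowed for, 3 of the 12 were still higher (3.61% of all genes). Of the 7 Ndufaf mRNAs none passed the test, where 6.52% of all genes were higher and 8.85% lower. With a replicate block 25 subunits were higher (17.5% of all genes) and Ndufaf1 was lower (18.7% of all genes). Ndufaf1 did not pass with the block once length and GC content were allowed for as well. Whether subunits and Ndufaf genes differed was not tested. Levels are CPM scaled by the trimmed mean of M-values (TMM), and a positive log2 fold change means higher on polyribosomes. The 38 subunit genes summed to 2001, 2109 and 2541 CPM on polyribosomes (replicates 1 to 3) and to 1681, 1645 and 1478 CPM in total RNA. The 3 polyribosome sums all lay above the 3 total sums, with means of 2217 ± 285.8 and 1601 ± 108.6 CPM (SD, n = 3). The 7 Ndufaf genes summed to 47.4, 50.8 and 50.7 CPM on polyribosomes and to 49.4, 60.6 and 64.3 CPM in total RNA, and here the groups overlapped.

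**Figure D1:**
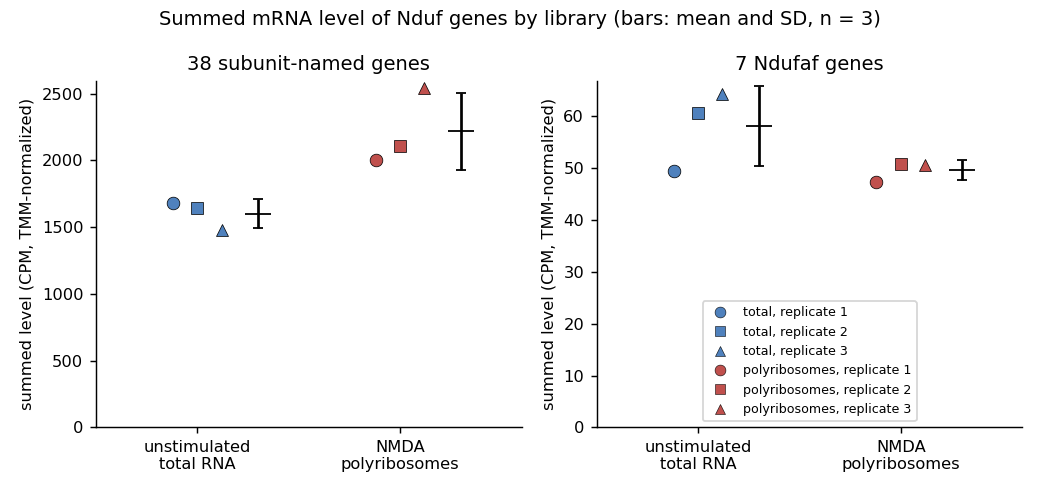
Summed level (CPM, TMM-normalized) of the 38 subunit-named genes (left) and the 7 Ndufaf genes (right) in each library, with markers for replicates 1 to 3 and bars for mean and SD. The subunit sums on polyribosomes (2001 to 2541 CPM) lie above all sums in total RNA (1478 to 1681 CPM), whereas the Ndufaf sums overlap.

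Of the 45 genes, 44 passed the filter on low counts and were tested, all but Ndufa4l2. The test was edgeR's quasi-likelihood test over 12255 genes with Benjamini-Hochberg adjustment, and the threshold was an adjusted p of 0.05. Among the 37 subunit genes tested, 12 were higher on polyribosomes past the threshold and 0 were lower, and 22 were higher and 0 lower at an unadjusted p under 0.05. Over all genes tested 6.52% were higher and 8.85% were lower past the threshold (15.4% and 17.1% at the unadjusted p). DESeq2 also called 12 subunits higher, 11 of them shared with edgeR, and 0 lower, against 5.97% of all genes higher and 6.21% lower. A positive log2 fold change was found for 36 of the 37, against 50.1% of all genes. The median log2 fold change of the subunits was 0.49 and that of all genes 0.00097. The groups did not overlap, with polyribosomes higher, for 26 of the 37 (17.4% of all genes). At an adjusted p of 0.01 edgeR left 0 subunits (0.71% of all genes higher, 2.36% lower). At this stricter threshold DESeq2 left 4 subunits higher, Ndufs7, Ndufa1, Ndufc2 and Ndufa13, and 0 lower (2.31% and 2.86% of all genes).

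The replicate numbers mark aliquots of the same preparation, and the differences could thus be read within each preparation. In log2 CPM the median subunit difference was 0.29 in preparation 1, 0.40 in preparation 2 and 0.82 in preparation 3. The mean of these was 0.50 ± 0.28 (SD, n = 3 preparations). Subunits were higher on polyribosomes for 30, 35 and 35 of 37 genes in the 3 preparations, and 28 were higher in all 3 (30.2% of all genes). Preparation 3 had the largest difference for 33 of the 37 subunits. Its total RNA library was also the shallowest, with a median of 28 counts per subunit gene against 103 and 143 in the other total libraries, and the median log2 fold change of the subunits without that library was 0.43. Adding the preparation to the model as a replicate block raised the number of subunits past the threshold to 25 higher and 0 lower, where 17.5% of all genes were higher and 18.7% lower. With the block, 17 were higher and 0 lower at an adjusted p of 0.01 (11.8% and 13.2% of all genes).

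**Figure D2:**
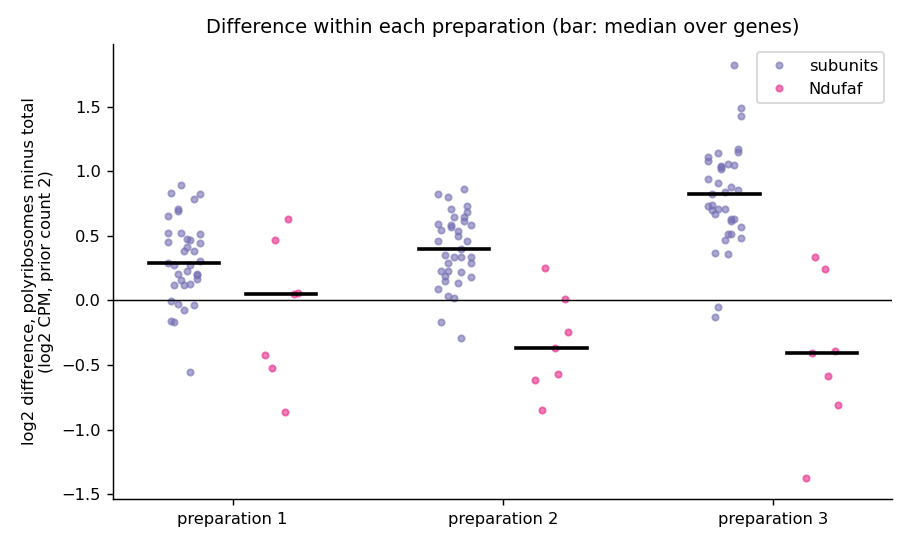
Difference in log2 CPM (prior count 2) between polyribosomes and total RNA of the same preparation, 1 point per gene, for the 37 subunit genes and the 7 Ndufaf genes tested, with the median as a bar. The subunit medians are 0.29, 0.40 and 0.82 and the Ndufaf medians 0.049, -0.37 and -0.41 in preparations 1, 2 and 3.

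Subunit mRNAs are short, and differences between these groups ran with transcript length and GC content over all genes. The median annotated length was 782 nt for the subunits tested and 2914 nt for all genes, and the median GC content was 52.2% and 50.8%. Across 37 subunits the log2 fold change had a Spearman rho of -0.37 with length and 0.37 with GC content, and across 12212 genes the rho was -0.29 and 0.54. These are descriptions over genes of the same 6 libraries, which are not independent replicates. With a per-library offset for GC content and length, 33 of 37 subunits stayed positive with a median of 0.25, and 3 were higher past the threshold and 0 lower (3.61% and 3.92% of all genes). The 3 were Ndufa1, Ndufb6 and Ndufc2. The other 9 of the 12 lost the call under this offset. With the offset and the replicate block together 10 subunits were higher and 1 lower, against 12.7% and 12.1% of all genes.

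**Figure D3:**
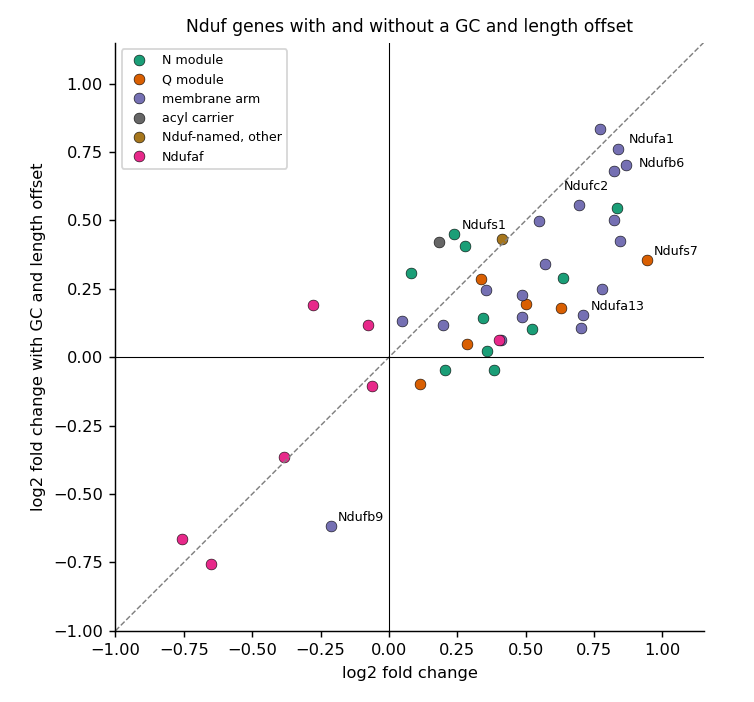
Log2 fold change of the 44 Nduf genes tested without (x axis) and with (y axis) a per-library offset for GC content and transcript length, coloured by module, with the line of equality dashed. Of the 37 subunits, 30 lie below the line, including all 12 past the threshold, such as Ndufs7 (0.94 and 0.35) and Ndufa13 (0.71 and 0.15), while Ndufs1 (0.24 and 0.45) lies above it.

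The peripheral arm begins with the N module. All 10 of its genes were on the positive side (median log2 fold change 0.35), and 1 passed the threshold (6.52% of all genes higher). That gene was Ndufs6, a zinc-binding supernumerary subunit added late in assembly, which carries the start codon word. Ndufs6 stood at 20.6, 21.7 and 24.9 CPM on polyribosomes and at 15.6, 11.7 and 6.71 CPM in total RNA. The groups did not overlap, total replicate 3 was the lowest, and the log2 fold change was 0.83 ± 0.23 (SE, edgeR adjusted p = 0.0286). Ndufs6 has a near-identical copy, Ndufs6b (96.6% identity over 348 nt), so reads may have been divided between the copies.

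Ndufv1 binds NADH and the flavin cofactor, where electrons enter the enzyme. It stood at 100.9, 98.5 and 171 CPM on polyribosomes and at 73.0, 74.7 and 93.0 CPM in total RNA. The groups did not overlap, replicate 3 was the highest of each group, and the log2 fold change of 0.64 ± 0.22 missed the threshold (edgeR adjusted p = 0.0591; 0.000216 with the replicate block). Ndufv2, which holds an iron-sulfur cluster of the same module, stood at 45.3, 44.7 and 45.5 CPM on polyribosomes and at 46.2, 36.5 and 24.0 CPM in total RNA. The polyribosome libraries were nearly equal and the total libraries spread around and below them, so the groups overlapped (log2 fold change 0.28 ± 0.20, edgeR adjusted p = 0.362). Ndufs1, the largest subunit and the carrier of several iron-sulfur clusters, stood at 123.4, 110.4 and 127.9 CPM and at 105.5, 100.5 and 99.7 CPM. Its groups did not overlap, though the log2 fold change was only 0.24 ± 0.16 (edgeR adjusted p = 0.308). With the offset and block together Ndufv2 and Ndufs1 were among the 10 subunits higher (adjusted p = 0.0361 and 0.00471).

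Ndufs4, a supernumerary subunit whose loss causes a Leigh-like disease in mice, had nearly the same level in both groups. It stood at 33.7, 32.5 and 34.6 CPM on polyribosomes and at 35.5, 32.2 and 24.9 CPM in total RNA (log2 fold change 0.08 ± 0.18, edgeR adjusted p = 0.801). The other 5 N module genes (Ndufa2, Ndufa6, Ndufa7, Ndufa12 and Ndufv3) had log2 fold changes of 0.21 (Ndufa2) to 0.52 (Ndufa7), and none passed the threshold. With the replicate block, Ndufa7 and Ndufv3 did (adjusted p = 0.00506 and 0.0497).

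In the Q module all 6 genes were on the positive side as well (median log2 fold change 0.42). Of these, 2 passed the threshold (6.52% of all genes higher). Ndufs7 carries the iron-sulfur cluster that hands electrons to ubiquinone and had the largest log2 fold change of the 44 genes tested. It stood at 52.6, 53.3 and 81.3 CPM on polyribosomes and at 28.1, 32.5 and 39.3 CPM in total RNA. All polyribosome libraries were above all total libraries, and replicate 3 was the highest of each group. The log2 fold change was 0.94 ± 0.21 (SE, edgeR adjusted p = 0.0131), and 0.35 with the GC and length offset (adjusted p = 0.179). Ndufs8, which bears a pair of iron-sulfur clusters, stood at 49.7, 64.3 and 77.6 CPM on polyribosomes and at 40.5, 42.5 and 40.3 CPM in total RNA. The spread was wide on polyribosomes and narrow in total RNA, with no overlap (log2 fold change 0.63 ± 0.19, edgeR adjusted p = 0.0394).

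Ndufs3, a further core subunit of the Q module, stood at 35.0, 38.4 and 38.9 CPM on polyribosomes and at 30.3, 27.8 and 17.3 CPM in total RNA. The groups did not overlap, but the threshold was missed (log2 fold change 0.50 ± 0.20, edgeR adjusted p = 0.0953; 0.0102 with the replicate block). A copy with 98.6% identity over 792 nt (Gm12251) may share reads with Ndufs3. Over the 7 nuclear core subunits the median log2 fold change was 0.50 with 2 past the threshold. Over the 29 supernumerary subunits it was 0.49 with 10, where 6.52% of all genes were higher.

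Ndufa5, a supernumerary subunit of this module, was among the 5 subunits with the lowest log2 fold change. It stood at 27.7, 31.0 and 43.9 CPM on polyribosomes and at 31.0, 34.8 and 26.9 CPM in total RNA, with the groups overlapping (0.11 ± 0.21, edgeR adjusted p = 0.750). Ndufa9 had a log2 fold change of 0.34 and passed the threshold only with the replicate block (adjusted p = 0.0441).

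The membrane arm held 9 of the 12 subunits past the threshold, among 19 genes tested (6.52% of all genes higher). Of the 19, 18 had a positive log2 fold change (50.1% of all genes). The median of the arm was 0.69, and 16 of the 19 passed with the replicate block (17.5% of all genes higher). Whether this arm differed from the peripheral arm was not tested. The GC and length offset left 3 past the threshold (3.61% of all genes higher). The median with the offset was 0.25, against 0.22 in the N module and 0.19 in the Q module.

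**Figure D4:**
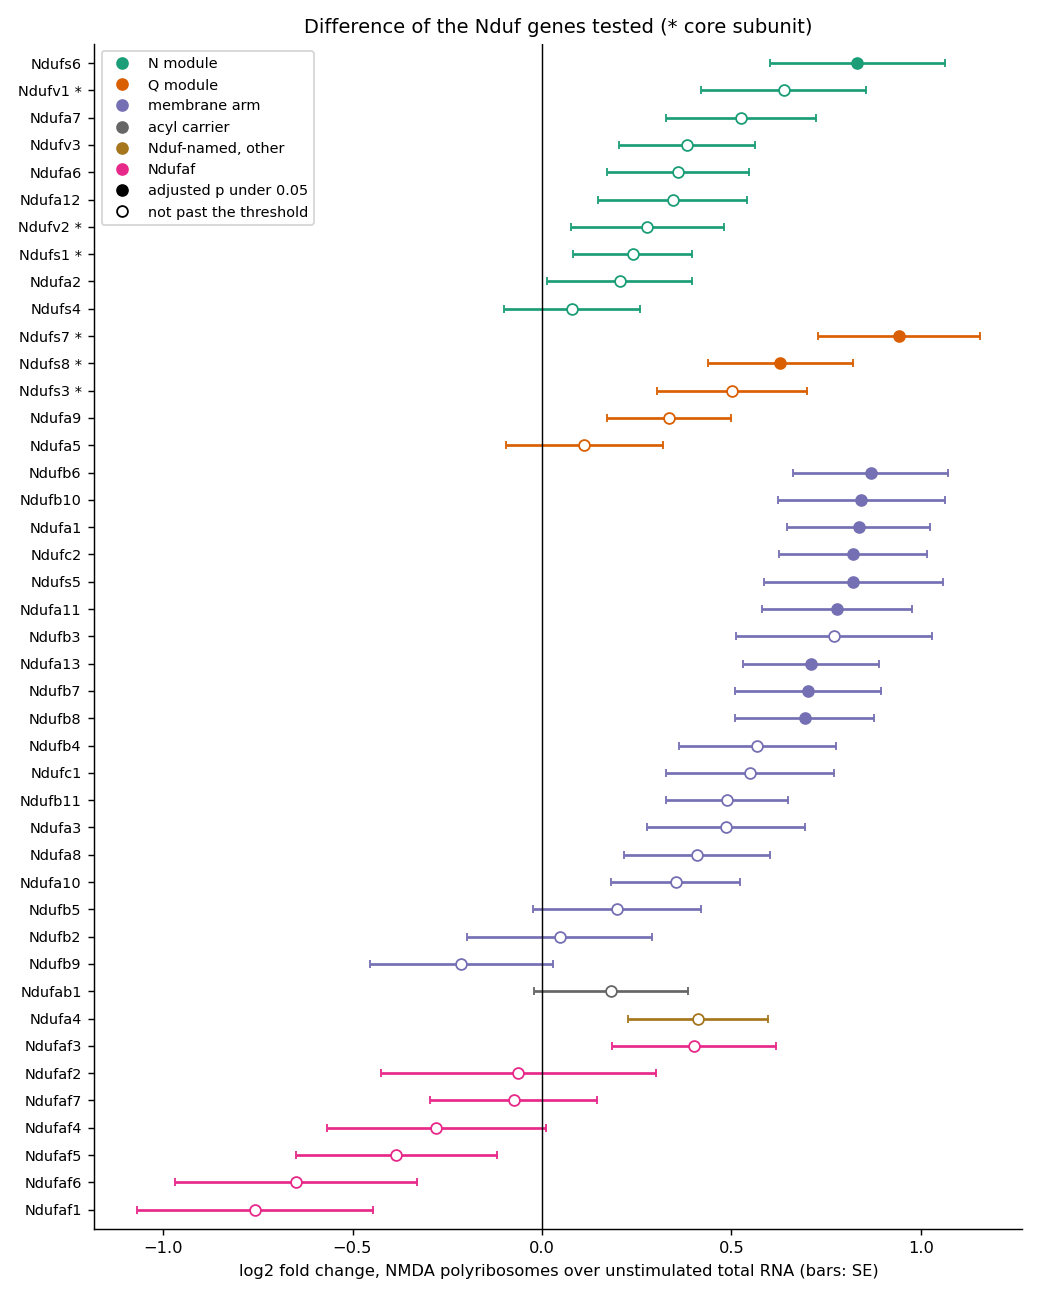
Log2 fold change of the Nduf genes tested, 1 of them not drawn (x axis, NMDA polyribosomes over unstimulated total RNA, bars SE), ordered by module and marked as filled where the edgeR adjusted p was under 0.05. All subunits but Ndufb9 lie right of 0, from 0.05 (Ndufb2) to 0.94 (Ndufs7), and all Ndufaf genes but Ndufaf3 lie left of it.

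Ndufa1, a small subunit anchored in the membrane by a single helix, stood at 55.3, 66.9 and 83.8 CPM on polyribosomes and at 38.5, 37.5 and 39.3 CPM in total RNA. The total libraries were almost equal and lay well below the polyribosome libraries (log2 fold change 0.84 ± 0.19, edgeR adjusted p = 0.0125). Ndufb6 stood at 31.5, 31.6 and 44.1 CPM and at 18.1, 20.1 and 21.1 CPM, with a log2 fold change of 0.87 ± 0.20 (edgeR adjusted p = 0.0149). Ndufc2 stood at 57.8, 58.4 and 79.1 CPM and at 40.2, 38.9 and 27.8 CPM, with a log2 fold change of 0.82 ± 0.20 (edgeR adjusted p = 0.0156). These 3 were also higher with the GC and length offset, by 0.76, 0.70 and 0.68 on the log2 scale (adjusted p = 0.0201, 0.0357 and 0.0251). Ndufb6 shares 257 nt of exon with Smim27 on the opposite strand.

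Ndufb10, Ndufb7 and Ndufs5 have paired cysteines that form disulfide bonds on the intermembrane space side. Ndufb10 stood at 42.9, 44.9 and 65.1 CPM on polyribosomes and at 24.1, 35.5 and 24.0 CPM in total RNA (log2 fold change 0.84 ± 0.22, edgeR adjusted p = 0.0237). Ndufb7 stood at 36.7, 45.9 and 50.9 CPM and at 25.3, 30.8 and 24.9 CPM (0.70 ± 0.19, edgeR adjusted p = 0.0280). Ndufs5 stood at 17.99, 15.4 and 24.1 CPM and at 9.93, 10.4 and 13.4 CPM (0.82 ± 0.24, edgeR adjusted p = 0.0322). For each of them the 3 polyribosome libraries lay above the 3 total libraries. Ndufs5 is 99.4% identical over 319 nt to BC002163, and its level may be divided with that copy. With the GC and length offset the log2 fold changes of Ndufb10, Ndufb7 and Ndufs5 were 0.42, 0.11 and 0.50, and none passed the threshold.

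Ndufa13 is also known, under the name GRIM-19, as a regulator of cell death. It stood at 130.7, 137.2 and 190.4 CPM on polyribosomes and at 93.9, 94.4 and 91.1 CPM in total RNA (log2 fold change 0.71 ± 0.18, edgeR adjusted p = 0.0206). Ndufa11, a multi-pass membrane subunit, stood at 54.9, 56.2 and 75.6 CPM and at 33.8, 32.2 and 46.0 CPM (0.78 ± 0.20, edgeR adjusted p = 0.0210). Neither pair of groups overlapped, and replicate 3 was the highest of the polyribosome libraries for both genes. Their log2 fold changes were 0.15 and 0.25 with the GC and length offset, short of the threshold. Both have exons that overlap a gene on the opposite strand, Tssk6 (375 nt) for Ndufa13 and Vmac (70 nt) for Ndufa11, and whether the counting used strand is not given in the sources used here.

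Ndufb8 was the study's antibody target for complex I and Ndufa10 a target of its qRT-PCR. That qRT-PCR compared mRNA shares across fractions of the polyribosome gradient with and without stimulation, which these counts do not. From it the paper reported a shift of selected mitochondrial transcripts to heavy polyribosomes after stimulation. Ndufb8 stood at 43.2, 45.3 and 48.2 CPM on polyribosomes and at 27.3, 32.8 and 22.1 CPM in total RNA. Its groups were well apart (log2 fold change 0.69 ± 0.18, edgeR adjusted p = 0.0249), and the offset brought it just outside the threshold (0.56, adjusted p = 0.0534). Ndufb8 shares 134 nt of exon with Gm20538 on the same strand. Ndufa10, a membrane arm subunit related to nucleoside kinases, stood at 72.9, 68.7 and 91.8 CPM and at 60.1, 58.9 and 64.3 CPM. The groups did not overlap by a narrow margin, and the log2 fold change was 0.35 ± 0.17 (edgeR adjusted p = 0.165; 0.0427 with the replicate block).

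**Figure D5:**
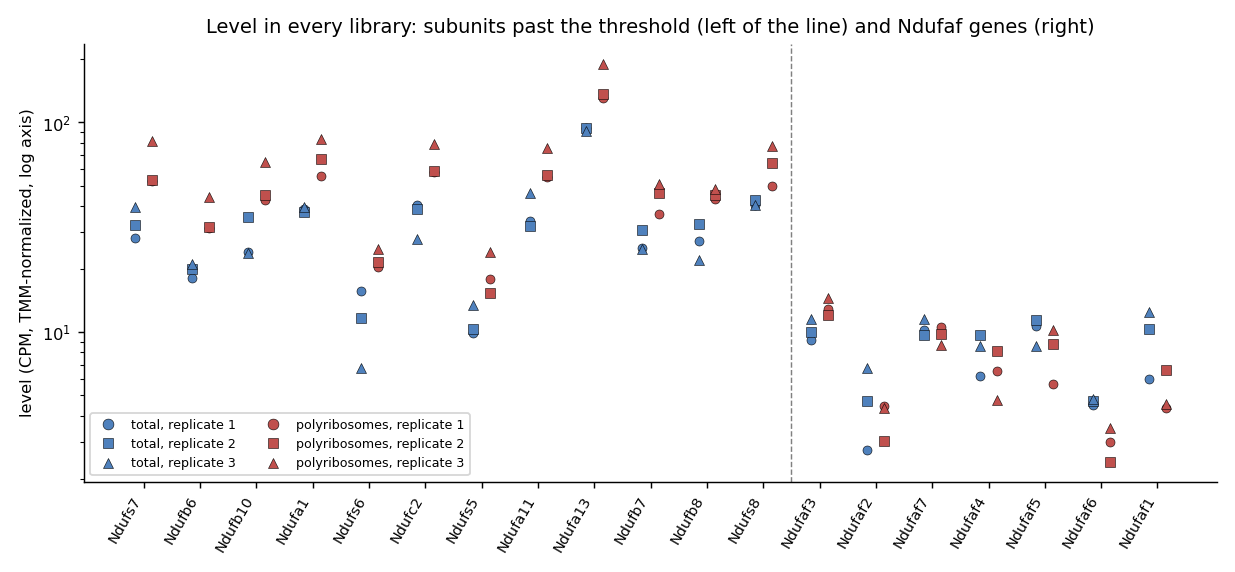
Level in each of the 6 libraries (CPM, TMM-normalized, log axis) of the 12 subunits past the threshold, ordered by log2 fold change, and of the 7 Ndufaf genes, with a marker for each replicate. In all 12 subunits the red polyribosome points lie above the blue total points, whereas among Ndufaf genes they do so only for Ndufaf3 and lie below only for Ndufaf6.

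Just outside the threshold lay Ndufb11 (log2 fold change 0.49, edgeR adjusted p = 0.0526) and Ndufb3 (0.77, edgeR adjusted p = 0.0557), both of which passed with the replicate block. Just inside it lay Ndufs8 and Ndufs5. At the other end, Ndufb9 was the subunit with a negative log2 fold change. Ndufb9 belongs to the LYR-motif proteins, which bind the mitochondrial acyl carrier protein. It stood at 92.7, 110.3 and 89.2 CPM on polyribosomes and at 136.3, 135.3 and 57.5 CPM in total RNA. The total libraries lay on either side of the polyribosome libraries, with replicate 3 far below the others (-0.21 ± 0.24, edgeR adjusted p = 0.581). With the replicate block and the offset together it was lower past the threshold (log2 fold change -0.57, adjusted p = 0.000854), and in preparation 3 it was higher on polyribosomes by 0.63. Part of its exons (201 nt) is shared with Gm49356 on the same strand.

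Ndufb2 and Ndufab1 completed the 5 lowest. Ndufb2, a small membrane arm subunit, stood at 9.74, 8.59 and 7.0 CPM on polyribosomes and at 8.94, 7.70 and 7.67 CPM in total RNA, with the groups overlapping (log2 fold change 0.05 ± 0.24, edgeR adjusted p = 0.917). Ndufab1, the mitochondrial acyl carrier protein itself, stood at 16.9, 18.1 and 20.4 CPM and at 14.7, 15.4 and 21.1 CPM, also with overlap (0.18 ± 0.20, edgeR adjusted p = 0.573). The remaining membrane arm genes (Ndufa3, Ndufa8, Ndufb4, Ndufb5 and Ndufc1) had log2 fold changes of 0.20 (Ndufb5) to 0.57 (Ndufb4) and did not pass the threshold, though all but Ndufb5 did with the replicate block.

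Ndufa4 and Ndufa4l2 carry Nduf names, but current classification places Ndufa4 in complex IV and counts neither as a complex I subunit. Ndufa4 stood at 161.5, 183.2 and 251 CPM on polyribosomes and at 148.7, 145.3 and 153.4 CPM in total RNA. Its polyribosome libraries were all higher (log2 fold change 0.41 ± 0.19, edgeR adjusted p = 0.137; 0.0153 with the replicate block). Ndufa4l2, an isoform gene induced by hypoxia, stood at 1.35, 1.05 and 2.06 CPM on polyribosomes and at 1.49, 1.00 and 3.84 CPM in total RNA and was not tested. Without both genes the subunit median was 0.49.

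Among the 7 Ndufaf genes 1 had a positive log2 fold change and 6 a negative value (3 were positive with the GC and length offset). Their median was -0.28, and 0 passed the threshold either way (6.52% of all genes were higher and 8.85% lower), with 0 higher and 1 lower at an unadjusted p under 0.05. DESeq2 called 0 of them too. Within preparations the median difference was 0.049, -0.37 and -0.41, with a mean of -0.24 ± 0.25 (SD, n = 3 preparations), and 2 genes, Ndufaf1 and Ndufaf6, were lower on polyribosomes in all 3 (30.6% of all genes). The subunit median exceeded the Ndufaf median by 0.24, 0.76 and 1.23 in the 3 preparations, a mean of 0.75 ± 0.50 (SD), with the counts of the shallowest total library behind the largest value. Over all 6 libraries the difference of the medians was 0.77, and it was 0.36 with the GC and length offset. Their counts limit what could be seen: in the shallowest library they had 5 to 13 counts per gene, and in the deepest 22 to 95.

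Ndufaf1 acts with Ecsit and Acad9 in building the membrane arm and had the lowest log2 fold change of the 44 genes tested. It stood at 4.33, 6.63 and 4.53 CPM on polyribosomes and at 5.96, 10.4 and 12.5 CPM in total RNA. It was lower on polyribosomes in each preparation, although polyribosome replicate 2 was above total replicate 1. The log2 fold change was -0.76 ± 0.31 (edgeR adjusted p = 0.108), and with the replicate block it passed the threshold (-0.75, adjusted p = 0.0173). With the block 18.7% of all genes were lower. With the block and the GC and length offset together Ndufaf1 did not pass (-0.67, edgeR adjusted p = 0.0535). Ndufaf6, a mitochondrial protein needed for complex I assembly, stood at 2.98, 2.41 and 3.5 CPM and at 4.47, 4.69 and 4.80 CPM. It was the Ndufaf gene whose polyribosome libraries were all below the total libraries (18.9% of all genes), yet its log2 fold change of -0.65 ± 0.32 did not pass (edgeR adjusted p = 0.173; 0.110 with the replicate block).

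Ndufaf3 and Ndufaf4 bind each other and act on the Q module, and they lay on opposite sides of 0. Ndufaf3 stood at 12.9, 12.1 and 14.6 CPM on polyribosomes and at 9.19, 10.1 and 11.5 CPM in total RNA, without overlap (log2 fold change 0.40 ± 0.22, edgeR adjusted p = 0.213). Ndufaf4 stood at 6.49, 8.13 and 4.74 CPM and at 6.21, 9.71 and 8.63 CPM, with overlap (-0.28 ± 0.29, edgeR adjusted p = 0.541; 0.19 with the offset). The difference between both genes was not tested.

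Ndufaf5 hydroxylates the core subunit Ndufs7, and Ndufaf7 is a methyltransferase. Ndufaf5 stood at 5.68, 8.74 and 10.3 CPM on polyribosomes and at 10.7, 11.4 and 8.63 CPM in total RNA (-0.38 ± 0.26, edgeR adjusted p = 0.336). Ndufaf7 stood at 10.6, 9.79 and 8.65 CPM and at 10.2, 9.71 and 11.5 CPM (-0.07 ± 0.22, edgeR adjusted p = 0.869). Ndufaf2, a relative of the subunit Ndufa12 that takes its place during assembly, stood at 4.46, 3.01 and 4.32 CPM and at 2.73, 4.69 and 6.71 CPM (-0.06 ± 0.36, edgeR adjusted p = 0.927). For all 3 genes the groups overlapped.

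Levels of different genes were compared per kilobase of annotated mRNA. The median subunit stood at 62.8 CPM per kb on polyribosomes and at 38.8 CPM per kb in total RNA, and the median Ndufaf gene at 4.34 and 6.62 CPM per kb. The median of all genes was 8.29 and 8.49 CPM per kb. In total RNA the subunits ran from 3.36 (Ndufb2) to 324 CPM per kb (Ndufa4), and the Ndufaf genes from 2.25 (Ndufaf4) to 8.78 CPM per kb (Ndufaf5). Only Ndufb2 and Ndufab1 among the 37 subunits tested lay below the highest Ndufaf gene. The values of both depend on the transcript used, since the annotated mRNAs run from 455 to 4371 nt for Ndufb2 and from 1416 to 3479 nt for Ndufab1. Core subunits in total RNA included Ndufv1 at 52.5 CPM per kb, and Ndufs3 (24.0 CPM per kb) and Ndufv2 (27.1 CPM per kb) were the lowest of them.

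The 7 subunits with the start codon word had a median log2 fold change of 0.34 with 2 past the threshold (Ndufs6 and Ndufs7). The 30 tested without it had 0.51 with 10, where 6.52% of all genes were higher. Over all genes the 220 tested with the word had a median of -0.074. In RefSeq windows of 250 bases before to 50 after the gene start (GRCm38.p6), available for 39 of the 45 genes, the consensus word of NRF1, a factor known for nuclear genes of the respiratory chain, was found on either strand in 3 (7.69%), against 2.10% of 15923 genes. The start codon word, in part at the same bases, was found in 4 (10.3% against 1.47%), and the CRE word TGACGTCA in 3 (7.69% against 2.65%). The ETS word CCGGAAGT was found in 1 (2.56% against 5.84%). A match describes letters in the window and was not tied to the abundance of any mRNA.

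Other complex I genes were read from the same fit. Of 15 names of further assembly factors 12 had a gene in the table, 7 with a positive log2 fold change (median 0.15). Past the threshold 2 were higher and 0 lower, against 6.52% and 8.85% of all genes. These were Ecsit (0.76 ± 0.21, edgeR adjusted p = 0.0266) and Acad9 (0.62 ± 0.20, edgeR adjusted p = 0.0464), the partners of Ndufaf1, and neither passed with the GC and length offset. Tmem126b, of the same assembly complex, had a log2 fold change of -0.42 (edgeR adjusted p = 0.292). The mitochondrially encoded ND genes, whose mRNAs stay inside mitochondria and are read by mitochondrial ribosomes, went the other way from the nuclear subunits. All 5 tested were lower on polyribosomes past the threshold (8.85% of all genes), without overlap (18.9% of all genes). The log2 fold changes ran from -1.67 (mt-Nd2) to -0.94 (mt-Nd6). Of these, mt-Nd1 stood at 1612, 2569 and 1849 CPM on polyribosomes and at 4327, 5880 and 6522 CPM in total RNA. With the offset 3 of the 5 remained past the threshold (3.92% of all genes lower), and mt-Nd3 and mt-Nd4l were below the filter.

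Nuclear genes of complexes III, IV and V were also mostly on the positive side. Of 35 tested, picked by symbol with the earlier results known, 33 had a positive log2 fold change (50.1% of all genes). Past the threshold 14 were higher and 1 was lower, against 6.52% and 8.85% of all genes. The median of the 35 was 0.54, against 0.49 for the subunits of complex I, and 0.33 against 0.25 with the offset. With the offset 9 of the 35 were higher and 1 lower, against 3 and 0 of the 37 complex I subunits (3.61% and 3.92% of all genes). The difference between the lists was not tested, so nothing in these values is shown to be particular to complex I.

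Of the 38 subunit genes, 20 had an exon overlapping another gene or a near-identical copy elsewhere. The 18 with neither had a median log2 fold change of 0.51, all positive, and 6 passed the threshold (6.52% of all genes higher). This selection was added after the data had been seen. Calls depended on single libraries, for all genes as for subunits. Over all genes 799 were higher with every library and between 77 and 924 with a library left out. Without total replicate 1, 2 subunits passed the threshold (Ndufs6 and Ndufa3), and without total replicate 2, 1 did (Ndufb10). Whether subunit calls moved more than those of all genes was not tested. The median log2 fold change of the subunits stayed between 0.42 and 0.54 whichever library was left out.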

How the data were processed

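RNA was ribo-depleted and made into dUTP libraries. The authors mapped reads with STAR 2.5.2b to GRCm38 (mm10), used HTSeq, bedtools, SAMtools and Gencode vM6 (basic), and deposited raw counts per protein-coding gene. Their DESeq2 columns (fold changes and p-values) were not used. Here edgeR 4.0.16 (R 4.3.3) was applied with filterByExpr, TMM factors and the quasi-likelihood test, group being the only term. P-values were Benjamini-Hochberg adjusted over 12255 genes at 0.05, whereas the study's methods used DESeq2 at an adjusted p of 0.01, run here as an alternative added later. DESeq2 1.42.0, other scalings, a replicate block, spline offsets for GC content and length (Gencode vM21, GRCm38, basic transcripts), a stricter threshold and leaving out each library were alternatives. The procedure was tested on simulated data. Replicates of a group differed by more than sampling noise, with a chi-square of 3.40 to 19.7 per degree of freedom.

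Replicate numbers pair the samples: the count columns share preparation labels, and deviations from group means correlated at 0.366, 0.258 and 0.380 for same-numbered libraries. Named genes were the core subunits, the Ndufaf genes, members past the threshold, the 5 highest and 5 lowest subunits, Ndufa10, Ndufb8, Ndufa4 and members below the filter. The members, the lists and this rule were chosen with earlier results of these data known. Copies were searched with blastn (95% identity, 200 nt). The values of 1 member are not reported here.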

Additional observations from a re-analysis of the deposited data

How the results depend on the processing

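The subunit median stayed positive under every alternative run, from 0.23 (replicate block with GC and length offset) to 0.51, and the Ndufaf median stayed negative, from -0.39 to -0.11. With libraries left out in turn they ranged from 0.42 to 0.54 and from -0.44 to -0.12, and their difference (0.77) from 0.54 to 0.98. Over the other alternatives the difference ran from 0.36 (GC and length offset) to 0.81. Counts moved more. Subunits higher numbered 12, with 7 by total counts only, 25 with the replicate block, 3 with the GC and length offset, 0 in edgeR without the block at an adjusted p of 0.01 and 1 to 14 with libraries left out. With the block 1 Ndufaf gene was lower, and with block and offset 1 subunit was. All genes higher (799) and lower (1085) became 453 higher by total counts only, 2148 and 2292 with the replicate block, 443 and 480 with the offset, 1560 higher with both, and 87 and 289 at 0.01. DESeq2 at 0.01, added after the data were seen, gave 4 subunits higher and 283 and 350 of all genes, and the block at 0.01, also added, 17 subunits and 1441 genes higher. With libraries left out they were 77 to 924 higher and 347 to 1016 lower.

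Total counts shifted the median of all genes to -0.11. They turned Ndufa5 (-0.0041), Ndufb2 (-0.063) and Ndufs4 (-0.032). The offset turned Ndufa5 (-0.098), Ndufv3 (-0.047), Ndufa2 (-0.048), Ndufaf4 (0.19) and Ndufaf7 (0.12). With the replicate block as well these were -0.17, -0.022, -0.039, 0.22 and 0.13. Leaving out a library turned Ndufb2 (-0.077 to 0.15), Ndufaf2 (-0.44 to 0.12), Ndufa5 (-0.11 to 0.24), Ndufb5 (-0.0023 to 0.39) and Ndufs4 (-0.014 to 0.19). None of these genes had passed the threshold, and the cause was not tested. Ndufaf genes had few counts (5 to 13 per gene in the shallowest total library), which limits what could be seen.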
